A study of Mus musculus with 6 samples.

Results

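Interleukin-12 (IL-12), IL-23, IL-27 and IL-35 are secreted dimers that share a small set of subunits, and the 5 genes that encode these subunits, Il12b, Il23a, Il12a, Ebi3 and Il27, were examined in RNA from tumor-associated macrophages (TAMs). They were taken by name from the table of 22377 genes, but were chosen by their counts and log2 fold changes in this same contrast, so their values are described without a test. All 5 were present, and all 5 passed the filter on low counts that left 13884 genes for testing. The comparison asked which genes differ in TAMs when an Npm1 allele is lost, and these cytokines are among the signals by which macrophages act on T cells.

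RNA sequencing covered 6 libraries, of which 3 carry the label wt and 3 the labels ko and knockdown. In the paper the groups are Npm1+/+ and Npm1+/- mice, young mice of both sexes, with subcutaneous tumors of the Lewis lung carcinoma (LLC) line, a mouse lung cancer line. The Npm1+/- mice lack 1 allele in every cell and not in macrophages alone, and the labels give neither genotype, sex nor age. The paper describes macrophages sorted as CD45+ CD11b+ F4/80+ cells, whereas the labels describe whole tumor tissue and a small RNA protocol. The groups are called wt and ko here. The labels call the 3 libraries of a group separate biosamples, but the paper's caption for a plot of these data gives fewer mice per group, so n counts libraries and the errors measure the spread between libraries.

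Total counts lay between 36550775 and 38147320 per library, and values are given either as CPM, in which TMM factors adjust each total, or as FPKM, which also divides by gene length. Npm1, the targeted gene, was not lower in the libraries labelled ko, with 142, 380.2 and 381 CPM in wt replicates 1, 2 and 3 and 441, 499 and 343 CPM in ko replicates 1, 2 and 3. Directions below are therefore those between the libraries as labelled. On the first principal component, which held 68.0% of the variance, wt replicate 1 stood at -108 and the other 5 libraries between -4.54 and 52.0. The summed CPM of 9 macrophage markers was 5206 to 6197 in wt and 2898 to 4947 in ko, so the groups did not overlap, 7 of the 9 were lower in ko without overlap, and none was at 0 in any library. Itgam, which encodes the sorting antigen CD11b, was the most abundant of them. Of 9 neutrophil markers, 4 were lower in ko without overlap, and their sum was 1400.04 to 1727 CPM in wt and 679.7 to 1327 in ko. Among all genes tested, 12.6% were lower in ko without overlap. The sums of fibroblast markers, 22.7 to 470.8 CPM in wt and 342 to 682 in ko, and of T cell markers overlapped between the groups. In these bulk samples, fewer cells of a type and less RNA per cell cannot be told apart.

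IL-12 pairs the p40 chain, encoded by Il12b, with the p35 chain, encoded by Il12a, and drives T and NK cells to make interferon-gamma. IL-23 pairs the same p40 chain with p19, encoded by Il23a, and sustains IL-17-producing lymphocytes. IL-27 pairs EBI3 with p28, encoded by Il27, and can both support and restrain T cell responses, and IL-35 is described as a dimer of EBI3 and p35. Myeloid cells make these subunits after stimulation through Toll-like receptors, and p40 and EBI3 resemble soluble cytokine receptors, while p19, p35 and p28 are helical cytokine chains.

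The promoters of the receptor-like chains are shown because Il12b and Ebi3 are the members whose groups separated, in opposite directions. RefSeq entries on GRCm38.p6 were matched for 3 of the 5 members, Il12a, Il12b and Ebi3, and the 250 bases before the start site are printed 5′ to 3′ for Il12b (chr11:44399813-44400062, plus strand) and Ebi3 (chr17:55952373-55952622, plus strand). Capitals mark matches to 6 motifs searched on both strands, and matches may overlap.
Il12b: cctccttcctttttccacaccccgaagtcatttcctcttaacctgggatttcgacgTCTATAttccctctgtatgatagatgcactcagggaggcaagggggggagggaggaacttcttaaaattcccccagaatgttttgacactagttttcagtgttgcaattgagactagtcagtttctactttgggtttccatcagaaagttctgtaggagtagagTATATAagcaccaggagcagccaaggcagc
Ebi3: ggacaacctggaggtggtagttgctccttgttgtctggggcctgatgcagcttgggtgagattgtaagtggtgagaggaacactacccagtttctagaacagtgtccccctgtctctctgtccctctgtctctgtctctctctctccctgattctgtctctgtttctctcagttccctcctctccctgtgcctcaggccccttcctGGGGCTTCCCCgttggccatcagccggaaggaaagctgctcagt
The motifs were GGG and CC with 5 bases between them for NF-kB, TTCNNNGAA for STAT proteins, TGANTCA for AP-1, TTGCNNAA for C/EBP, GAAA and GAAA with 2 bases between them for interferon regulatory factors, and TATANA for a TATA box. Capitals in Il12b are TATA box letters, from -194 to -189 and from -30 to -25 before the start site. Capitals in Ebi3 are overlapping NF-kB letters from -44 to -34. Of 32851 promoter windows of 300 bases, 24.7% held the TATA letters, 50.8% the NF-kB letters, 8.3% the STAT letters, 7.81% the AP-1 letters, 10.8% the C/EBP letters and 3.44% the interferon regulatory factor letters, so these matches are common and are given as a description only.

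Il12b and Ebi3, the receptor-like chains, were the 2 of the 5 members whose wt and ko libraries did not overlap. Among all genes tested, 25.9% did not overlap, and nothing is read from the count because the members were chosen with this contrast known. Il12b was higher in the ko libraries and Ebi3 was lower. Il23a and Il12a had lower estimates in ko with overlapping groups, and Il27 differed little.

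**Figure D1:**
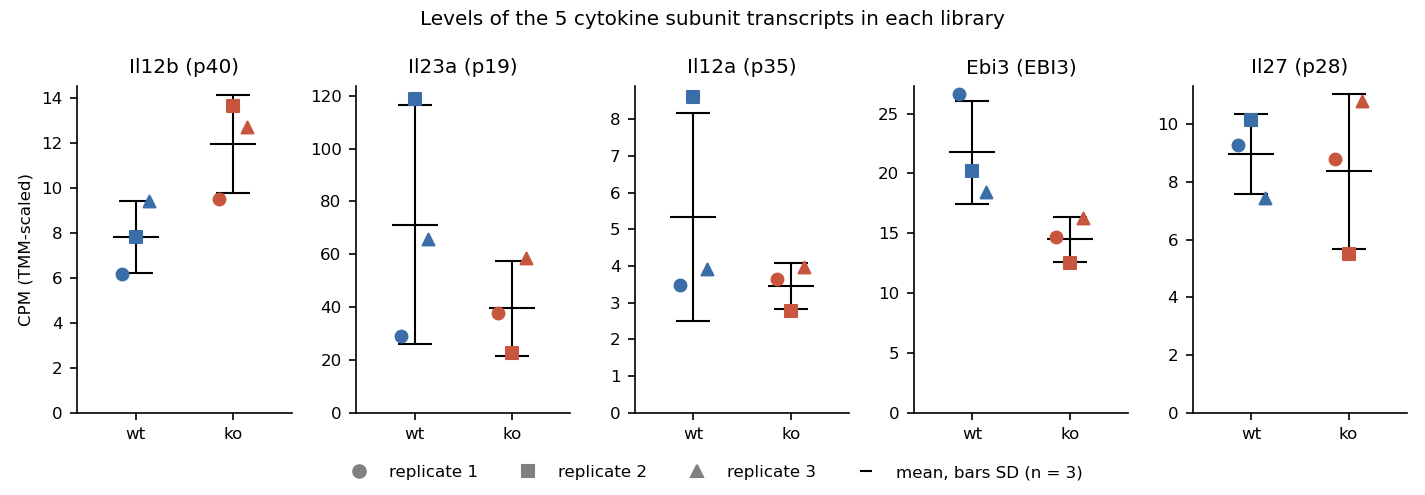
Each panel plots one subunit gene in CPM (TMM-scaled, linear axis from 0) for the wt and ko libraries, with 1 point per library, the mean as a line and the SD as bars (n = 3). The groups separate for Il12b and Ebi3, whereas for Il23a the wt libraries alone run from 29.0 to 119 CPM.

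Il12b encodes p40, the chain common to IL-12 and IL-23, and lies on chromosome 11 (44400063 to 44414033, GRCm38, plus strand). Its level was 6.19, 7.81 and 9.41 CPM in wt replicates 1, 2 and 3 and 9.49, 13.7 and 12.7 CPM in ko replicates 1, 2 and 3. The highest wt and lowest ko library differed by less than the spread within either group, so the separation was narrow. The means were 7.80 ± 1.61 CPM (SD, n = 3) in wt and 11.9 ± 2.18 (SD, n = 3) in ko. The estimate was a 1.53-fold higher level, a log2 fold change of 0.61 with a standard error of 0.24. It stayed between 0.47 and 0.75 when each library was left out. Npm1 is on the same chromosome, 11.2 Mb away.

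The T cell markers, a list of 7 of which 6 are in the table and none of those at 0 in any library, summed to 21.4, 31.3 and 92.8 CPM in wt replicates 1, 2 and 3 and to 83.7, 202 and 73.1 CPM in ko replicates 1, 2 and 3. The library with the highest Il12b, ko replicate 2, was also the one with the most T cell RNA, and wt replicate 1 was lowest in both. Between these the order differed, as wt replicate 3 had more T cell RNA than ko replicates 1 and 3 but less Il12b. The 10 dendritic cell markers, listed because these cells are a known source of p40, had sums of 618 to 993 CPM in wt and 639 to 948 in ko, which overlapped. Of the 10, 1 was higher in ko without overlap and 0 were lower, while 25.9% of all genes tested did not overlap. None of the 10 was at 0 in any library, and Ccl22 was the most abundant. The part of either cell type in the level of Il12b was not tested.

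Ebi3 encodes the receptor-like chain of IL-27 and IL-35 and lies on chromosome 17 (55952640 to 55957022, plus strand). Its level was 26.6, 20.2 and 18.5 CPM in wt replicates 1, 2 and 3 and 14.7, 12.5 and 16.3 CPM in ko replicates 1, 2 and 3, so each ko library was below each wt library. The means were 21.8 ± 4.28 CPM (SD, n = 3) in wt and 14.5 ± 1.88 (SD, n = 3) in ko. The ko level was 0.666 of the wt level, a log2 fold change of -0.59 with a standard error of 0.19. The antisense gene Gm16712 overlaps it by 2252 bp but had 5 to 15 counts per library, against 525 to 946 for Ebi3.

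The order of the 6 libraries by Ebi3 was the same as by the summed macrophage markers, from wt replicate 1 down to ko replicate 2. How many other genes follow this order was not counted, and the part of the markers in the level of Ebi3 was not tested. Per 1000 CPM of these markers, Ebi3 stood at 4.29, 3.56 and 3.55 in wt and at 3.93, 4.32 and 3.29 in ko replicates 1, 2 and 3, where the groups overlapped. Scaled in this way Ebi3 did not separate the groups, and its log2 fold change with that scaling was 0.02 (standard error 0.27), while the median of all genes moved from 0.02 to 0.64. Ebi3 was thus below the median of all genes both before this scaling, at -0.59, and after it, so nothing is read from the overlap. Per 1000 CPM of the same markers Il12b was at 0.998, 1.38 and 1.81 in wt and 2.55, 4.71 and 2.57 in ko. Its separation there was fixed in advance, since each ko library was above each wt library in Il12b and below each in the marker sum. Il27 was at 1.50, 1.79 and 1.43 in wt and 2.35, 1.89 and 2.18 in ko replicates 1, 2 and 3, without overlap. The log2 fold change of Il27 with that scaling, 0.45, was below the median of all genes, 0.64, so nothing is read from this separation. Il23a and Il12a overlapped on that scale.

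**Figure D2:**
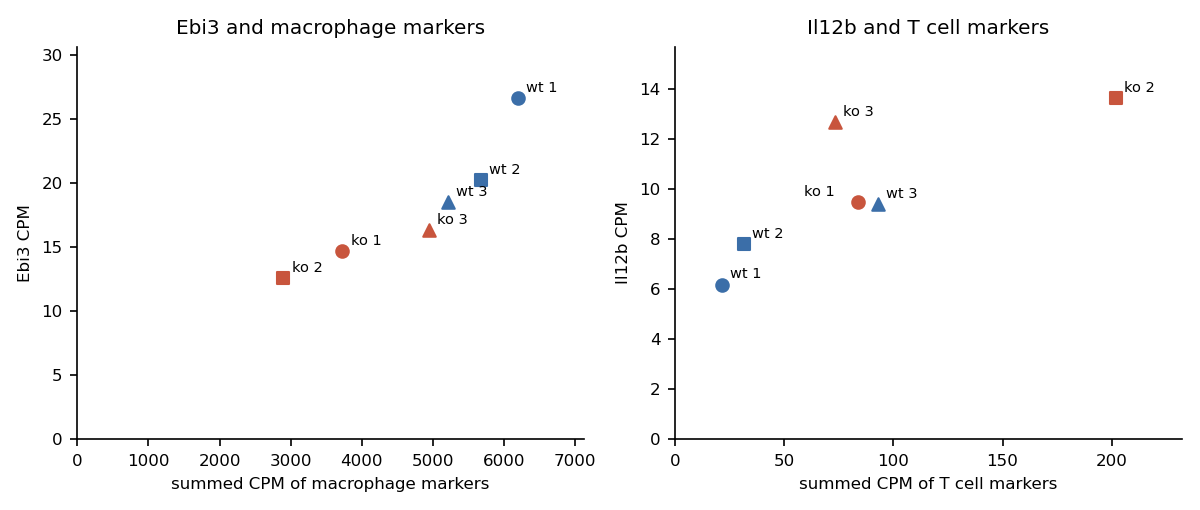
Points are the 6 libraries, with the summed CPM of the macrophage markers against Ebi3 CPM at left and the summed CPM of the T cell markers against Il12b CPM at right, both on linear axes from 0. Ebi3 falls from 26.6 CPM in wt replicate 1 to 12.5 in ko replicate 2 in the same order as the macrophage markers, and the part of these markers was not tested. At right, ko replicate 2 has both the most T cell RNA and the highest Il12b, but wt replicate 3 has more T cell RNA and less Il12b than ko replicates 1 and 3.

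Il23a encodes p19, the chain specific to IL-23, and lies on chromosome 10 (128296139 to 128298752, minus strand). It was the most abundant of the 5 per length, with mean FPKM values of 49.7 ± 30.9 (SD, n = 3) in wt and 30.0 ± 11.3 (SD, n = 3) in ko, and 11.1% of the genes tested had a higher mean FPKM. Its level was 29.0, 119 and 65.8 CPM in wt replicates 1, 2 and 3 and 37.6, 22.7 and 58.5 CPM in ko replicates 1, 2 and 3. Both wt replicates 2 and 3 lay above each ko library, whereas wt replicate 1 lay below ko replicates 1 and 3. Its highest wt library exceeded the lowest 4.10-fold, a ratio passed by 11.8% of the genes tested. The log2 fold change was -0.85 with a standard error of 0.52. It rested largely on wt replicate 2, without which it was -0.26, and it was -1.24 without ko replicate 3.

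Il12a encodes p35, the chain that IL-12 does not share with IL-23, and lies on chromosome 3 (68690644 to 68698547, plus strand). It was the least abundant member, with 116 to 305 counts per library, and its level was 3.49, 8.60 and 3.93 CPM in wt replicates 1, 2 and 3 and 3.64, 2.77 and 3.97 CPM in ko replicates 1, 2 and 3. Except for wt replicate 2, the libraries of both groups lay between 2.77 and 3.97 CPM. The estimate was -0.63 on the log2 scale (standard error 0.39) and became -0.11 without wt replicate 2. For both Il12a and Il23a, the same wt library was the highest.

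Il27 encodes p28, the chain specific to IL-27, and lies on chromosome 7 (126589010 to 126594941, minus strand). Its level was 9.28, 10.1 and 7.43 CPM in wt replicates 1, 2 and 3 and 8.78, 5.49 and 10.8 CPM in ko replicates 1, 2 and 3. The ko libraries held both the highest and the lowest value. The log2 fold change was -0.10 (standard error 0.28), and it changed sign to 0.12 without ko replicate 2. Apobr overlaps the end of Il27 by 103 bp on the other strand and had 5769 to 9119 counts, and with no strand stated for the counting, part of the 230 to 395 counts of Il27 could belong to it.

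**Figure D3:**
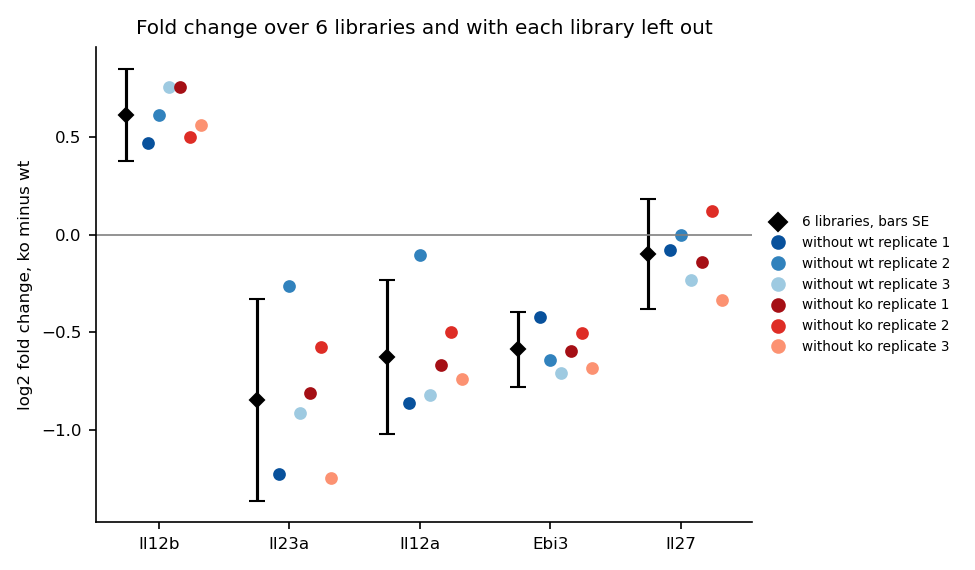
Diamonds are the log2 fold changes of the 5 genes, ko minus wt, over 6 libraries with standard errors, and colored points are the same estimate with 1 library left out. Il12b stays above 0 and Il23a, Il12a and Ebi3 stay below 0, but Il23a and Il12a come close to 0 without wt replicate 2, at -0.26 and -0.11, and Il27 crosses it.

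Because the dimers need both chains, the FPKM values of partner chains were set side by side in each library. For IL-23, the p19 transcript exceeded the p40 transcript in each library. The ratio of Il23a to Il12b was 8.63, 28.05 and 12.9 in wt replicates 1, 2 and 3 and 7.31, 3.06 and 8.50 in ko replicates 1, 2 and 3. The lowest wt and the highest ko ratio nearly met, and the mean difference was -1.34 on the log2 scale, against a within-group SD of 0.83. Without wt replicate 2 the difference was -0.87. The difference combines a lower estimate of Il23a with a higher one of Il12b, both chosen with this contrast known, and is given as a description only.

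For IL-12, the ratio of Il12a to Il12b was 0.766, 1.497 and 0.568 in wt replicates 1, 2 and 3 and 0.521, 0.276 and 0.425 in ko replicates 1, 2 and 3. The p35 transcript was therefore scarcer than the p40 transcript in 5 of the 6 libraries, and its share of the pair was lower in each ko library than in each wt library. The difference was -1.14 on the log2 scale, with a within-group SD of 0.61. Without wt replicate 2 it was -0.74, while the estimate of Il12a alone was -0.11. Il12b, the denominator, was chosen with this contrast known and was itself higher in each ko library, so nothing is read from this separation. The p40 transcript itself was between the other chains, above p35 in those 5 libraries and far below p19 in all 6. Transcript ratios do not give the amounts of protein, which were not measured.

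For IL-27, the ratio of Ebi3 to Il27 was 2.91, 2.02 and 2.53 in wt replicates 1, 2 and 3 and 1.70, 2.32 and 1.53 in ko replicates 1, 2 and 3, so EBI3 transcripts were in excess throughout and the groups overlapped. For IL-35, Ebi3 exceeded Il12a 12.0-, 3.70- and 7.40-fold in wt and 6.34-, 7.12- and 6.46-fold in ko replicates 1, 2 and 3, with the ko values inside the range of the wt values. The 5 transcripts together summed to 52.4, 113 and 75.0 FPKM in wt and 56.0, 44.7 and 71.0 FPKM in ko replicates 1, 2 and 3. Il23a made up 37.9% to 72.3% of that sum and was the largest part in all libraries but wt replicate 1, where Ebi3 made up 40.4%.

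**Figure D4:**
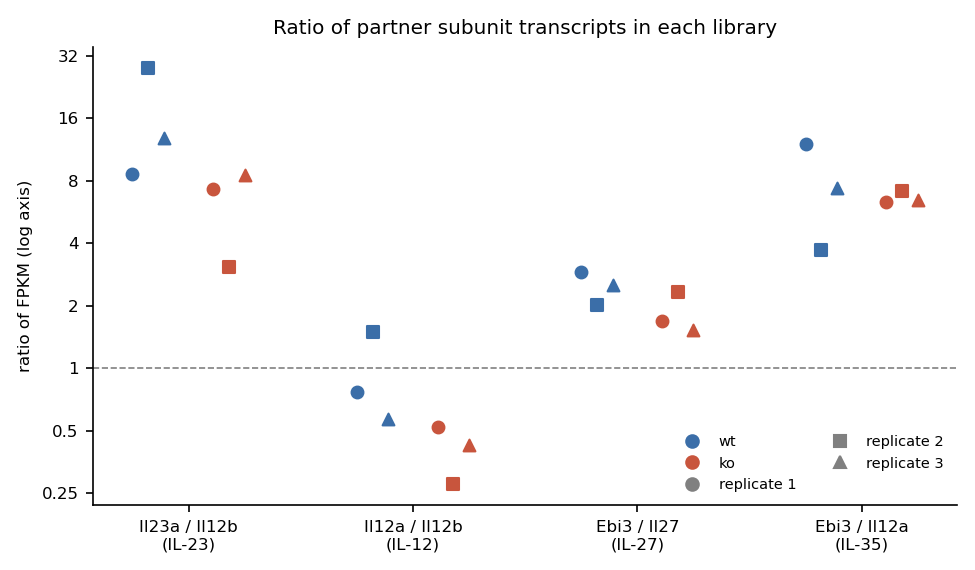
Each point is the ratio of FPKM values of 2 partner transcripts in 1 library, on a log axis, for the pairs that form IL-23, IL-12, IL-27 and IL-35, and the dashed line marks equal levels. Il23a exceeds Il12b in each library, from 3.06-fold in ko replicate 2 to 28.05-fold in wt replicate 2, whereas Il12a lies below Il12b in 5 of 6.

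By the Pearson correlation of log2 CPM over the 6 libraries, given as a description, the genes most like Il12b were Rnf6 (0.99), Rnpc3 (0.99) and Mrc2 (0.98). Those most like Ebi3 were Rxra, a nuclear receptor subunit, Csf2rb, the common beta chain of the GM-CSF receptor, and Tfe3, a lysosomal transcription factor, each above 0.99. With Ebi3, 5.65% of the other genes tested passed 0.95, against 0.144% with Il27 and 0.245% to 0.259% with the other members. Those most like Il23a were Hilpda (0.99), a hypoxia-induced lipid droplet protein, Zfp429 (0.99) and Zfp456 (0.99). For Il12a they were Ccdc167 (0.99), Tmem168 (0.99) and the inflammasome sensor Nlrp3 (0.99), and for Il27 Dbi (0.99), Ndufs4 (0.99) and Mmadhc (0.98). The libraries share their groups and depth, and nothing of shared control is read from likeness over 6 points.

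Genes around the cytokines were taken from 7 lists of receptors, signal transducers, regulators of subunit transcription and output genes, 74 in all, of which 71 were tested. With p-values adjusted over all genes tested, the quasi-likelihood test of edgeR called 0 of the 71 and 0% of all genes. At an unadjusted p under 0.05 there were 21, or 29.6%, against 15.2% of all genes tested, 8 of them higher and 13 lower in ko. The lists were chosen with earlier results of these data known, so nothing is read from the difference in shares. The 21 became 7 without ko replicate 2, where 669 of all 14070 genes tested had such a p. They became 10 without ko replicate 1, where 775 of 14122 did. With scaling to the macrophage markers there were 27, all higher, and 5401 of all 13884 genes tested, a like share. DESeq2 called 0.9% of all genes for which it gave an adjusted p and 2 of the listed genes, Tnf and Tlr9. Without wt replicate 1 it called Irf1 and Tlr9, and the call of Tnf was lost.

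Of the 5 receptor genes, Il6st, which encodes the gp130 chain shared with many cytokine receptors, was at 88.2 to 141 CPM in the 6 libraries, and the other 4 were at 29.7 CPM or less in each. None of the 5 passed the test. The median log2 fold change was 0.54, against 0.02 for all genes, but it was 0.09 without ko replicate 2, 0.96 without wt replicate 3 and 0.32 with limma on log2 FPKM plus 1. Il6st had the only estimate below 0, at -0.23 (standard error 0.19, adjusted p = 0.476, edgeR). Il12rb2, the signalling chain of the IL-12 receptor, had 10.2, 13.7 and 16.3 CPM in wt replicates 1, 2 and 3 and 15.3, 29.7 and 13.3 CPM in ko replicates 1, 2 and 3, and Il12rb1, the chain shared with the IL-23 receptor, was at 1.72 to 4.20 CPM in wt and 3.2003 to 7.73 in ko. In both, ko replicate 2 was highest, the library with the most T cell RNA. Il27ra, the specific chain of the IL-27 receptor, was at 4.12 to 7.32 CPM in wt and 7.06 to 13.4 in ko, with a log2 fold change of 0.74 (standard error 0.34, adjusted p = 0.331, edgeR). Il23r had 1 to 33 counts in wt and 7 to 35 in ko.

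Of 10 signal transducers, 0 passed the test and 3 had an unadjusted p under 0.05, against 15.2% of all genes tested. Stat4, which carries the IL-12 signal, was at 29.4, 29.1 and 41.3 CPM in wt and 47.1, 58.6 and 47.6 CPM in ko replicates 1, 2 and 3, without overlap (log2 fold change 0.62, standard error 0.18, adjusted p = 0.328, edgeR). Stat3, which IL-23 and IL-27 use, was at 351 to 505 CPM in wt and 290 to 316 in ko. Its log2 fold change was -0.44 (standard error 0.16), with an adjusted p of 0.328 in edgeR.

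Among the 13 activators of subunit transcription, 0 passed the test. The unadjusted p was under 0.05 in 1 gene that was higher and 3 that were lower, against 15.2% of all genes tested. Irf1, a factor for p35 and p28 transcription, was at 226 to 300.1 CPM in wt and 375 to 412 in ko, and Spi1 and Cebpb, factors of myeloid identity, were at 280.2 to 441 and 1098 to 1772 CPM in wt and at 158 to 246 and 529 to 989 in ko. Their log2 fold changes were 0.54 (standard error 0.14), -0.75 (standard error 0.23) and -0.82 (standard error 0.28), each with an adjusted p of 0.328 in edgeR. Of 9 repressors, 0 passed and 2 had an unadjusted p under 0.05, against 15.2% of all genes tested. These were Maf and Bcl6, at -0.44 (standard error 0.16) and -0.31 (standard error 0.12). Nfil3, a repressor of Il12b in macrophages, was at 533 to 753 CPM in wt and 258 to 557 in ko, so its groups overlapped (log2 fold change -0.60, standard error 0.28, adjusted p = 0.334, edgeR).

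Of 14 sensors and costimulators upstream, 0 passed edgeR's test. Each of the 14 estimates was below 0, with a median log2 fold change of -0.40 against 0.02 for all genes, but 1 to 4 were above 0 in several other settings and 11 with scaling to the macrophage markers. Tlr9, the receptor for unmethylated DNA, was at 39.0, 59.0 and 31.1 CPM in wt and 24.3, 22.7 and 19.5 CPM in ko replicates 1, 2 and 3, with a log2 fold change of -0.96 (standard error 0.24, adjusted p = 0.328 in edgeR and 0.0434 in DESeq2). Irak4 and Ifngr2 also did not overlap between groups, at -0.70 (standard error 0.25) and -0.48 (standard error 0.16). In this list 4 of 14 genes did not overlap, against 25.9% of all genes tested, and nothing is read from the count. The macrophage markers were lower in ko as well, with sums of 6197, 5676 and 5206 CPM in wt and 3727, 2898 and 4947 in ko replicates 1, 2 and 3. The part of those markers was not tested.

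Of 12 other mediators induced by bacterial lipopolysaccharide, 0 passed edgeR's test, and their median log2 fold change was -0.02. Tnf was at 393, 541 and 393 CPM in wt and 705, 711 and 770.04 CPM in ko replicates 1, 2 and 3, with a log2 fold change of 0.72 (standard error 0.16, adjusted p = 0.328 in edgeR and 0.0259 in DESeq2). The DESeq2 call was not made without wt replicate 1. Csf2, encoding GM-CSF, had 7 to 16 counts in wt and 25 to 42 in ko. Nos2, the inducible nitric oxide synthase, was at 55.4 to 87.0 CPM in wt and 27.1 to 58.0 in ko (log2 fold change -0.80, standard error 0.29, adjusted p = 0.328, edgeR).

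Of 11 genes that lymphocytes express in answer to these cytokines, 8 were tested and 0 passed. Their median log2 fold change was 1.10, and 0.56 without ko replicate 2. An unadjusted p under 0.05 was found in 4, against 15.2% of all genes tested. The 4 became 0 without ko replicate 2, without wt replicate 2 and with the replicate block. In these settings 669 of 14070, 2689 of 14296 and 1606 of 13884 of all genes tested had such a p. Ifng, the main output of IL-12, was at 1.10, 1.04 and 4.41 CPM in wt and 6.74, 19.2 and 3.58 CPM in ko replicates 1, 2 and 3 (log2 fold change 2.17, standard error 0.78, adjusted p = 0.328, edgeR). Tbx21, its transcription factor, was at 1.04 to 1.77 CPM in wt and 1.81 to 8.86 in ko, and Gzmb, a cytotoxic protease, at 16.5 to 32.6 and 26.3 to 80.1. For all 3 the highest library was ko replicate 2, the library with the highest T cell and NK cell sums, at 202 and 61.1 CPM. Il17a, an output of IL-23, had 1 to 16 counts in wt and 14 to 27 in ko, and Il22 had 0 counts in each wt library and 1 to 3 in ko, at or under the limit of 3 counts that a count of 0 allows.

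**Figure D5:**
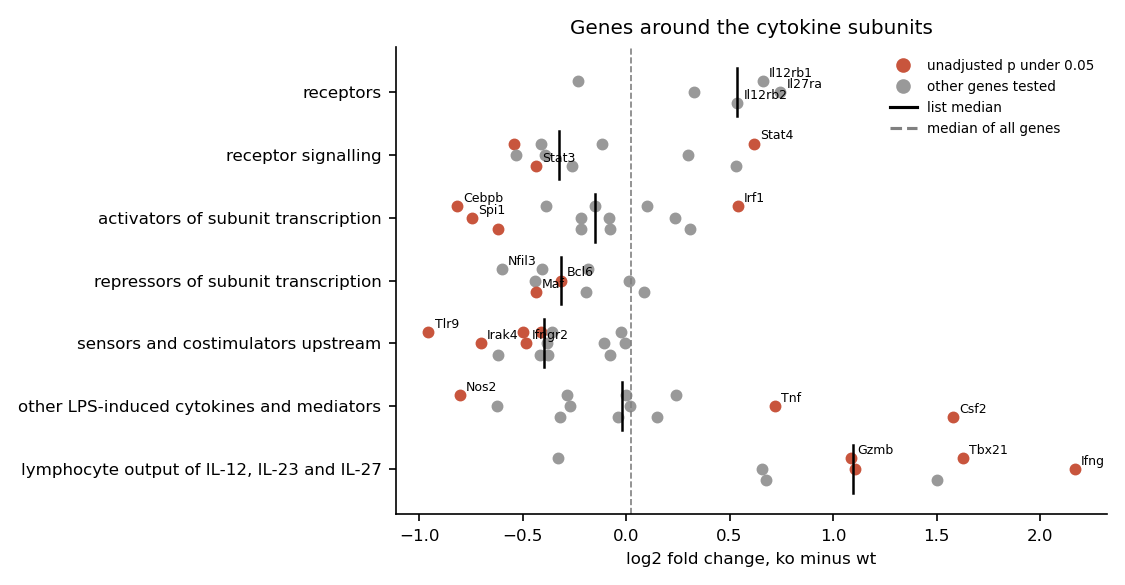
Points are the log2 fold changes, ko minus wt, of 71 genes tested in 7 lists, in red where the unadjusted p was under 0.05, with the list median as a black line and the median of all genes as a dashed line. The 14 sensors lie below 0 here, though 1 to 4 do not in several other settings and 11 do not with scaling to the macrophage markers. The lymphocyte genes have the highest median, 1.10, which is 0.56 without ko replicate 2.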

How the data were processed

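Counts per gene for 6 libraries were deposited as whole numbers without normalization, together with FPKM values, which the authors formed by dividing each count by 1 length per gene and by the total count of the library. The labels name the build mm10, which is GRCm38. The aligner, the counting tool and the strand setting are not given in the sources used here. Coordinates are from GENCODE M21, matched by symbol.

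Counts were fitted with edgeR 4.0.16 in R 4.3.3 (filterByExpr, TMM, glmQLFit, glmQLFTest, Benjamini-Hochberg over 13884 genes, threshold 0.05). DESeq2 1.42.0 and limma 3.58.1 served as alternatives. The prior count for log2 CPM was 2, and each standard error is the size of the log2 fold change over the square root of F. A count of 0 allows up to 3 counts, or 0.0716 to 0.0846 CPM, for counting error only. The fits were tested on simulated data with known changes. Libraries are labelled separate biosamples, and n counts libraries.

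The members and lists were chosen with earlier results of these data known. Named genes were the members, Npm1, the 3 genes per pathway list with the smallest p, and the 3 genes most like each member. A gene that this rule names is not reported here. Genes given beside these (Il6st, Il23r, Il17a, Il22, Gm16712 and Apobr) were chosen after their values were seen. No pairing by replicate number was assumed in the main fit, as stated in the closing section.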

Additional observations from a re-analysis of the deposited data

How the results depend on the processing

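Where not stated otherwise, the signs of the 5 estimates held with other scalings, filters, DESeq2 and limma. Il27 changed sign with limma on log2 FPKM plus 1 (0.0089) and plus 0.1 (0.0072), and plus 0.1 put the median of all genes at 0.16, against 0.02. With the same pseudocounts Il12a was at -0.28 and -0.36 and Il23a at -0.56 and -0.58. Scaling to the macrophage markers, added after the data were examined, moved that median to 0.64 and gave -0.36 for Il23a, -0.0515 for Il12a, 1.23 for Il12b, 0.0176 for Ebi3 and 0.45 for Il27. The cause was not tested. edgeR and limma called 0 genes in each alternative and 0 of the listed pathway genes, with 2112 and 21 at an unadjusted p under 0.05 in the 6 libraries. DESeq2 called 108 genes and 2 of the listed ones (Tnf and Tlr9), and, without wt replicate 1, an alternative added later, 81 and 2 (Irf1 and Tlr9).

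With each library left out in turn, edgeR called 0 genes, and the log2 fold change ranged from -1.24 to -0.26 for Il23a, -0.86 to -0.11 for Il12a, 0.47 to 0.75 for Il12b, -0.71 to -0.42 for Ebi3 and -0.33 to 0.12 for Il27. The log2 difference in ratio ranged from -1.72 to -0.87 for Il23a to Il12b, -1.44 to -0.74 for Il12a to Il12b, -0.61 to -0.31 for Ebi3 to Il27 and -0.51 to 0.34 for Ebi3 to Il12a, where it changed sign without wt replicate 1.

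No pairing by replicate number was assumed in the main fit. Deviations of same-numbered libraries correlated at -0.24, 0.06 and -0.34, and with so few libraries these values cannot exclude a pairing. When the model held the replicate block, 0 genes were called, 1606 at an unadjusted p under 0.05, and the estimates were -0.69 for Il23a, -0.51 for Il12a, 0.62 for Il12b, -0.58 for Ebi3 and -0.14 for Il27. The lowest count of a member in any library was 116. Of the 14 sensors, 2 estimates were above 0 with upper quartile scaling, with at least 10 counts in every library, without wt replicate 1 (edgeR and DESeq2) and without ko replicate 2. In 4 this was so with limma, in 1 with the replicate block, without wt replicate 2 and without ko replicate 1, and in 11 with scaling to the macrophage markers. Over all genes tested, those at an unadjusted p under 0.05 fell from 2112 to 669 without ko replicate 2 and 775 without ko replicate 1, and were 5401 with scaling to the macrophage markers.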
